A study of Mus musculus with 12 samples.

Results

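The hippocampus of enriched aged mice was set against that of young mice kept in standard cages, the contrast that asks whether enrichment leaves the older hippocampus resembling the young standard state. The comparison rests on 6 of the 12 SAGE-Seq libraries of the series, aged EE libraries 1 to 3 and young SH libraries 1 to 3, chosen by their labels alone. All mice were wild type males on the C57/BL6 background. Aged EE mice were labelled as 14 to 17 months old and had lived with environmental enrichment (EE), in large cages with running wheels, tunnels and changing objects. Young SH mice were 5 to 6 months old and had lived in standard housing (SH). The remaining 6 libraries, 3 of aged SH and 3 of young EE mice, were fitted along with them and are given as references. Each library came from 1 hippocampus of 1 mouse, all mice had been trained in the Morris water maze, and tissue was taken weeks after the last trial. The 2 groups compared differ in age and in housing at once, so the parts of age and of housing in any difference cannot be told apart within this pair.

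The hippocampus encodes places and episodes, and in rodents its performance declines with age. Work in aged rodent brain has repeatedly described more expression of glial, complement and antigen presentation genes and less of genes for synapses, and enrichment is known to promote neurotrophin expression, synapse formation and the survival of new granule cells in the dentate gyrus. Protein phosphatase 1 (PP1), a serine/threonine phosphatase that restrains memory formation, and its inhibitor subunits are the genes the study followed most closely.

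SAGE-Seq counts 1 short tag per messenger RNA. Complementary DNA bound to beads by its poly(A) end is cut with NlaIII, an enzyme that cuts at the letters CATG, and the site nearest to the poly(A) end is read for 27 bases by means of a second enzyme. Each value below is in RPM, the reads of a gene per 1000000 reads of its library, and 1 transcript stands for each of the 23361 gene names. The totals were 12016789 to 16035068 reads in aged EE and 10891097 to 13383661 reads in young SH libraries. In the whole series the smallest total was 6928745 reads, in aged SH library 3. Differences are given on the scale of log2(RPM + 0.5), aged EE minus young SH, with their standard error (SE), and p-values are those of limma, a linear model with a pooled spread over genes, adjusted by Benjamini-Hochberg over the 13138 genes tested. A gene was called where its adjusted p was under 0.10. Because tissue was sampled in bulk, fewer cells of a type and less RNA per cell cannot be told apart.

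All 8 dentate granule cell, 10 CA3 and CA2 and 6 CA1 marker genes passed the filter on low counts, as hippocampal tissue should show. Some libraries stood apart. Aged EE library 3 held choroid plexus RNA, with a mean log2 level of 5.37 over the 9 tested choroid plexus genes against 1.67 to 2.41 in the other 11 libraries. Young SH library 3 held more blood RNA, with a mean log2 level of 8.87 over 6 blood genes against 4.71 to 6.99 elsewhere. The balance of dorsal against ventral hippocampal markers was uneven within both groups, at 0.92 to 2.69 log2 units in aged EE and 0.37 to 2.43 in young SH. With the dorsal minus ventral difference as a covariate, 124 genes were called in place of the 439 given below. The part of blood and choroid plexus RNA in the results was not tested, other than by the values without each library.

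Overall resemblance was measured by the SD, over the 13138 genes, of the log2 difference between 2 libraries, so that a smaller value means more similar libraries. The 9 pairs of an aged EE with a young SH library lay between 0.56 and 0.88, with a mean of 0.711. The young SH libraries were themselves spread, at 0.58 to 0.75 within the group, and the aged EE libraries were tighter, at 0.46 to 0.54. Aged EE library 1 lay at a mean of 0.675 from the 3 young SH libraries, library 2 at 0.690 and library 3 at 0.768. The corresponding values of aged SH libraries 1 to 3 were 0.703, 0.773 and 0.798. These libraries held 14015813, 9524626 and 6928745 reads, and fewer reads add counting error to a distance. The part of depth in the distances was not tested. The ranges of the 2 aged groups overlapped, and the difference between their means of -0.05 (0.711 ± 0.050 for aged EE and 0.758 ± 0.049 for aged SH, SD, n = 3 each) did not pass a two-sided exact permutation test (p = 0.2, where 0.1 is the smallest p that 3 against 3 can give). With the median absolute log2 difference in place of the SD, the means were 0.373 and 0.392 (exact permutation p = 0.7).

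**Figure D1:**
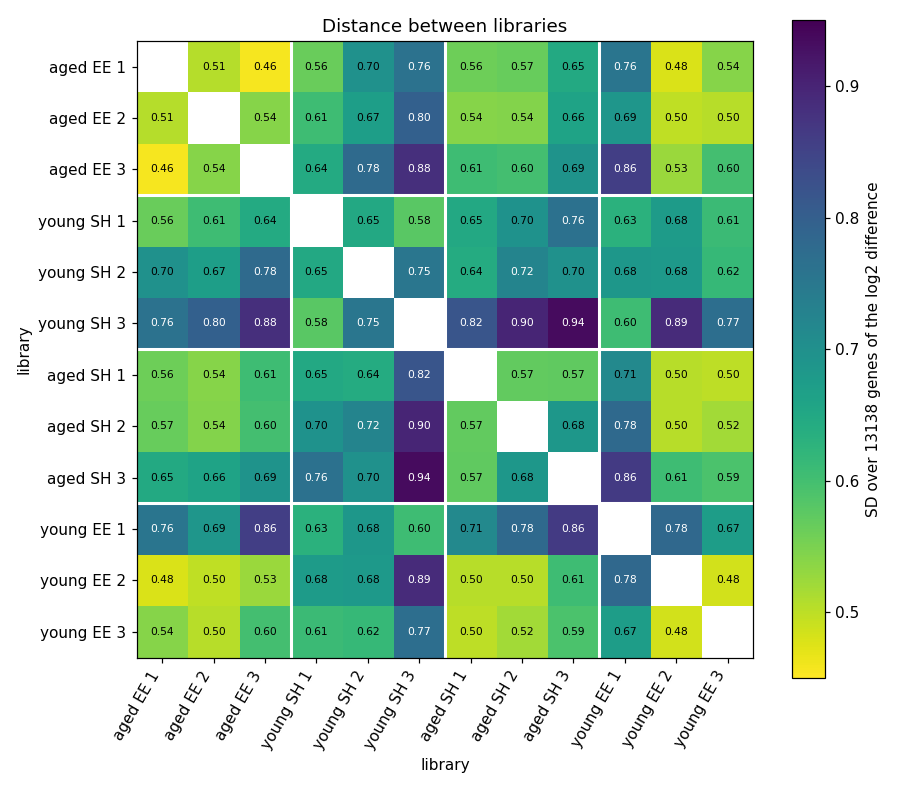
Distance between every pair of the 12 libraries, as the SD over 13138 genes of the log2 difference (colour and printed value), with both axes ordered by group. Aged EE libraries lie 0.46 to 0.54 from each other and 0.56 to 0.88 from young SH libraries, and young SH library 3 lies farthest from most others.

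The nearest library to an aged EE library was never a young SH one. Aged EE libraries 1 and 3 were nearest to each other, at 0.456, and aged EE library 2 was nearest to young EE library 2, at 0.497. From the other side, young SH library 1 had aged EE library 1 as its nearest library, at 0.565, young SH library 2 had young EE library 3, at 0.615, and young SH library 3 had young SH library 1, at 0.578.

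Of the 13138 genes tested, 439 (3.34%) were called between aged EE and young SH mice. In aged EE 66 (0.502%) were higher and 373 (2.84%) were lower. The median log2 difference of all genes was -0.14, so the bulk of genes lay slightly below 0 when libraries were scaled by their totals. Scaled by TMM, which centres the bulk of the genes, the median was 0.01 and the split was 118 higher against 171 lower, so the excess of lower over higher genes was larger under the scaling by totals. An unadjusted p under 0.05 was reached by 2495 genes. The 3 aged EE and the 3 young SH libraries did not overlap for 885 genes higher (6.74%) and 2856 genes lower (21.7%) in aged EE. The higher genes were abundant, with a median level of 75.6 RPM over the 12 libraries, against 13.1 RPM for all tested genes and 8.26 RPM for the lower genes. Their differences were smaller, with a median of 0.836 log2 units against 1.48 among the lower genes.

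For reference, 495 genes (3.77%) were called between aged SH and young SH mice in the same fit, 108 of them higher (0.822%) and 387 lower (2.95%), and 0 of 13138 (0%) between aged EE and young EE mice, where 1093 genes reached an unadjusted p under 0.05. Likewise, edgeR called 0 genes by its quasi-likelihood test between aged EE and young EE and 19 by its likelihood ratio test, and DESeq2 called 49. The first of these comparisons shares the young SH libraries with the main one and the other shares the aged EE libraries. The number of calls in the main comparison depended on single libraries. Without young SH library 3 there were 0 calls by limma, at 1610 genes with an unadjusted p under 0.05, and without young SH library 1 or 2 there were 35 or 86. Without aged EE library 1, 2 or 3 there were 14, 18 or 12. The libraries of the groups not compared also counted, through the pooled spread: 48, 221 or 87 calls were made without aged SH library 1, 2 or 3, and 1221, 662 or 32 without young EE library 1, 2 or 3. With only the 2 libraries per group that the study took forward there were 0 calls by limma, at 1105 genes with an unadjusted p under 0.05.

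The position of the NlaIII site differed between the called genes and the rest, which the expected tags show directly. The tags were read from the mouse genome (NCBI37/mm9) at the 3′ end that the deposited table gives for each transcript, and are written here with the NlaIII site in capitals. Of the 15 lower genes of largest difference, 9 had a site so close to the annotated 3′ end that fewer than 27 transcribed bases were left for the tag. They are shown by 6 of these genes and by Ndufs1, a lower gene described further on.

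Ephx4 (chr5:107859039-107859050, plus strand): CATGgtactgaa
Atp5e (chr2:174286576-174286589, minus strand): CATGgttcactttc
Mrps6 (chr16:92112457-92112472, plus strand): CATGactttatcaaca
Rps4x (chrX:99380282-99380293, minus strand): CATGgtgaaact
Mast3 (chr8:73302016-73302030, minus strand): CATGaagacatctga
Npy (chr6:49779494-49779504, plus strand): CATGcattcaa
Ndufs1 (chr1:63190166-63190182, minus strand): CATGttaaaaacactga

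Cst3, the most abundant of the lower genes of largest difference, had a site 28 bases from its end, followed by a run of A. For contrast, 3 higher genes with sites farther inside the transcript are shown.

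Cst3 (chr2:148697469-148697495, minus strand): CATGccttgctcaattaaaaaaaaaaa
Ppp2r1a (chr17:21102789-21102815, plus strand): CATGttttttgtgtgtcaattgtgcca
Tm2d2 (chr8:26133609-26133635, plus strand): CATGcacaggtcagaagctgcaccaat
Gabra5 (chr7:64663087-64663113, minus strand): CATGattggattatcgctctgttagct

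Over all tested genes, 974 (7.41%) had their last site within 26 bases of the annotated end, so that the expected tag runs past it (a short tag), and these held 160 of the 373 lower genes (42.9%) but 6 of the 66 higher genes. Within this class 16.4% of genes were called lower, against 1.75% of the 12140 genes whose tag fits. The latter include 5253 genes with no site in the last 200 bases, counted as fitting without their tag being placed. The share of genes called lower was 17.0% at 4 to 9 bases, 20.7% at 10 to 14 bases, 17.8% at 15 to 19 bases and 7.57% at 20 to 26 bases, and it fell to between 1.17% and 2.00% in every bin from 27 bases on. The median log2 difference was -0.60 at 10 to 14 bases and 0.03 at 27 to 40 bases. Beyond 200 bases it was -0.22. The same bins showed medians of -0.61, 0.04 and -0.16 for aged SH against young SH, which shares the young SH libraries.

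**Figure D2:**
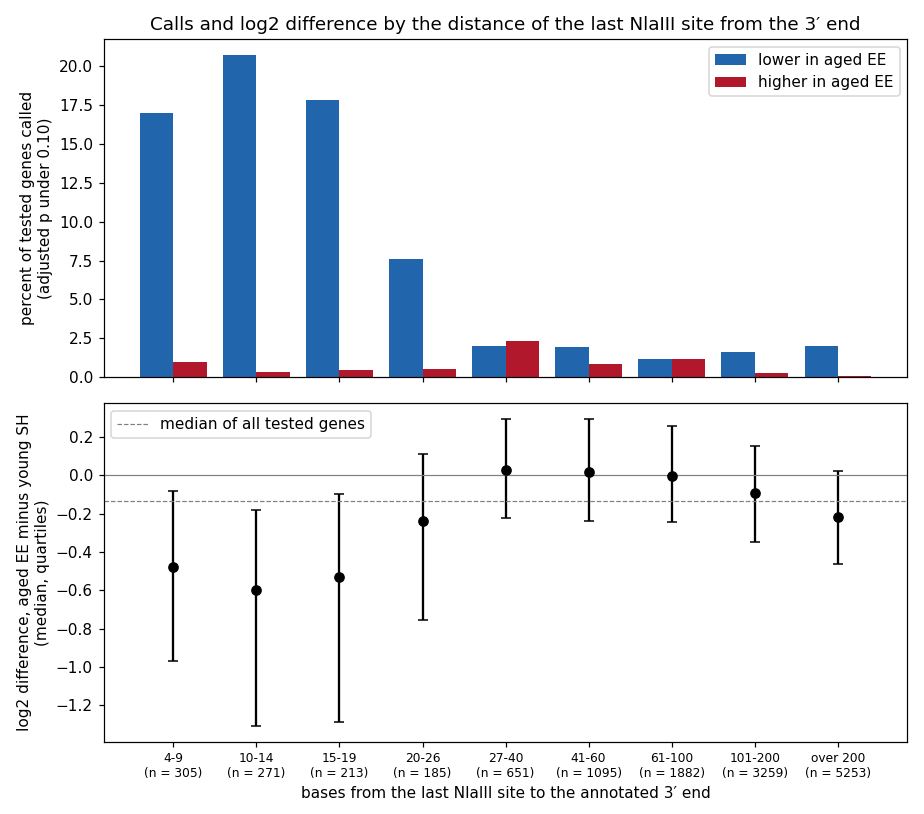
Upper panel: percent of tested genes called lower (blue) or higher (red) in aged EE than in young SH, by the number of bases from the last NlaIII site to the annotated 3′ end (n genes under each bin). Lower panel: median and quartiles of the log2 difference in the same bins, with the median of all genes dashed. Between 7.57% and 20.7% of genes with a site under 27 bases were called lower, against 2.00% or fewer beyond.

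The libraries divided along this feature in a way that did not follow age or housing alone. The mean deviation of the genes with a site within 26 bases, minus that of the other genes, was 0.25, 0.22 and 0.45 log2 units in young SH libraries 1 to 3 and -0.15, -0.09 and -0.25 in aged EE libraries 1 to 3. It was -0.11, -0.14 and -0.22 in aged SH libraries. Young EE library 1 stood at 0.35, with the young SH libraries, while young EE libraries 2 and 3 stood at -0.24 and -0.07. Aged EE and young SH libraries did not overlap in this score, so within these 6 libraries the score and the group cannot be told apart, and the part of the score in the calls was not tested further than by the refits that follow. When the 974 genes were left out and p-values adjusted over the remaining 12164 genes, 11 genes were called, all lower in aged EE (9 of them histone H2B names, with Vkorc1 and Tmem55b). With the score as a covariate, 0 genes were called by limma, at 882 with an unadjusted p under 0.05. Both refits were chosen after the pattern had been seen.

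The lower genes divided the libraries in a like manner with or without a short tag. Relative to the aged EE mean, the 160 lower genes with a short tag had a median log2 level of 1.48 to 1.87 in young SH libraries, 0.02 to 0.29 in aged SH libraries, and 1.33, -0.02 and 0.46 in young EE libraries 1 to 3. The 212 lower genes whose tag fits had medians of 1.13 to 1.53 in young SH, 0.14 to 0.38 in aged SH, and 0.845, 0.11 and 0.51 in young EE. Of these 212 genes, 104 had no site in the last 200 bases, so their tag was not placed. The remaining lower gene could not be put in either class. The aged EE and young SH values together chose these genes and are a description, while the aged SH and young EE libraries entered only the spread. Because levels are given relative to the aged EE mean, offsets of the other groups toward young SH can arise from this choice alone. The 66 higher genes lay at a median of -0.84 in the young SH group, -0.25 in aged SH and -0.35 in young EE, where library 1 was the lowest of its group, at -0.57, and thus again nearest to the young SH level.

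**Figure D3:**
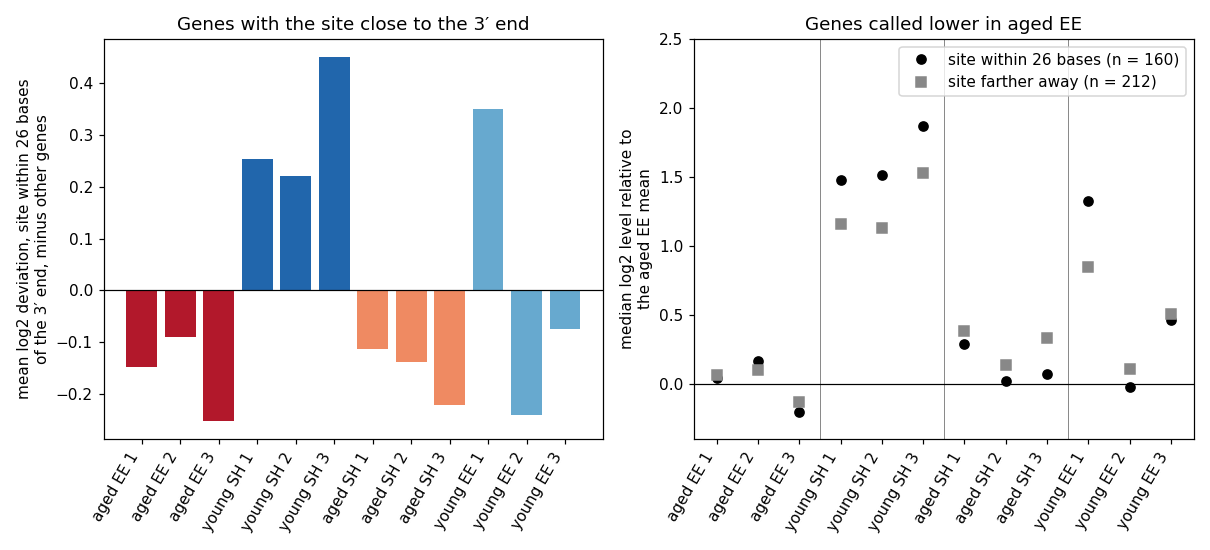
Left: mean log2 deviation of the 974 genes with an NlaIII site within 26 bases of the 3′ end minus that of the other genes, per library, coloured by group. Right: median log2 level of the genes called lower in aged EE, relative to the aged EE mean, for those with such a site (160, black) and those without (212, grey). Young SH libraries and young EE library 1 are high in both panels.

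Among the 15 lower genes of largest difference whose libraries did not overlap, the most abundant was Cst3, which encodes cystatin C, a secreted inhibitor of cathepsins. Cst3 measured 387, 292 and 144 RPM in aged EE libraries and 1913, 1909 and 2232 RPM in young SH libraries, with no overlap. The difference was -2.99 ± 0.61 (adjusted p = 0.0706). In aged SH libraries Cst3 measured 142 to 392 RPM, within the aged EE range or next to it, and in young EE library 1 it reached 1204 RPM against 168 and 466 RPM in libraries 2 and 3. Atp5e, the epsilon subunit of ATP synthase, measured 7.55, 11.5 and 5.18 RPM against 88.0, 82.1 and 168 RPM, a difference of -3.71 ± 0.80 (adjusted p = 0.0721). Its site lies 14 bases from the end. Rps4x, a protein of the small ribosomal subunit, was at 7.17 to 11.8 RPM in aged EE and at 72.2 RPM or more in each young SH library, and at 190.0 RPM in young EE library 1.

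The others of these 15 were Ephx4 (-3.90), an epoxide hydrolase family member, Mrps6 (-3.57), a protein of the small mitochondrial ribosomal subunit, the beta globin names Beta-s, Hbb-b1 and Hbb-b2 (-3.23 each), Mast3 (-3.19), a microtubule-associated kinase, Fnbp1l (-3.03), which bends membranes in endocytosis, Npy (-2.99), Nudt2 (-2.99), a nucleotide hydrolase, Bod1 (-2.97), which acts in chromosome attachment, Trpm7 (-2.93), a cation channel with a kinase domain, and Kctd2 (-2.93). Of these 12 names, 7 had a site within 26 bases of the end, and the globin names, Bod1 and Trpm7 did not. Mrps6 had the smallest p of all genes (adjusted p = 0.0262), at 0.95, 0 and 0.25 RPM against 6.42, 12.2 and 9.83 RPM. Its site lies 16 bases from the end. With the score as a covariate none of the 15 was called. Rps4x and Npy changed sign, to 0.24 and 0.14, while the other 13 kept theirs in every refit. Among these the difference stayed at -3.60 for Mrps6 and shrank to -0.29 for Mast3, -0.31 for Bod1, -0.48 for the globin names, -0.58 for Atp5e and -1.08 for Cst3, and to between -1.89 and -0.71 for the others.

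At the stricter adjusted p under 0.05, 22 genes remained, all lower in aged EE. Of these, 11 had a short tag and 9 were names of the histone H2B cluster, whose copies share reads. The remaining genes were Vkorc1, which recycles vitamin K, and Tmem55b, a lysosomal phosphatidylinositol phosphatase, both named after their values were seen. Vkorc1 measured 7.18, 5.83 and 4.74 RPM in aged EE and 22.2, 18.01 and 26.9 RPM in young SH, with 4.41 to 7.71 RPM in aged SH and 5.92 to 11.6 RPM in young EE (-1.83 ± 0.29, adjusted p = 0.0352). Tmem55b measured 4.47, 5.58 and 3.87 RPM against 14.4, 15.8 and 19.7 RPM (-1.74 ± 0.28, adjusted p = 0.0373). For both genes the 3 young SH libraries were the highest of all 12, young EE library 1 included, and their sites lie 68 and 53 bases from the end.

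The higher genes were led by Ppp2r1a, the scaffold subunit of protein phosphatase 2A (PP2A). It measured 261, 260.0 and 246 RPM in aged EE and 177, 42.3 and 97.2 RPM in young SH libraries, with no overlap and a wide spread within young SH (1.4996 ± 0.38, adjusted p = 0.0913). The aged SH libraries lay at 203 to 279 RPM and the young EE libraries at 204 to 277 RPM, so that only the young SH group stood apart. Tm2d2, which encodes a membrane protein of unsettled function, measured 27.0, 23.1 and 27.9 RPM against 10.8, 10.2 and 9.73 RPM (1.3025 ± 0.29, adjusted p = 0.0743). Aged SH libraries were between these, at 14.6 to 17.95 RPM. Acaa2, the thiolase of mitochondrial fatty acid oxidation, measured 63.8, 56.8 and 86.9 RPM against 27.9, 38.3 and 23.3 RPM (1.21 ± 0.23, adjusted p = 0.0674). Its levels in aged SH were 40.3 to 53.8 RPM.

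Also among the 15 higher genes of largest difference were Cdc42ep4 (1.34), an effector of the GTPase Cdc42, Gm6900 (1.16), Eme1 (1.13), a subunit of a DNA repair endonuclease, Lypla1 (1.11), which removes palmitate from proteins, Ilkap (1.08), a phosphatase, Ephx1 (1.08), the microsomal epoxide hydrolase, Tcf25 (1.05), H1fx (1.04), a linker histone, Kdelr1 (1.02), which retrieves proteins to the endoplasmic reticulum, Slc35c2 (0.99), a transporter of the Golgi, and Arrdc4 (0.96). Adjusted p-values ran from 0.0706 for Ilkap to 0.0989 for Cdc42ep4, Lypla1 and Ephx1. Tcf25, at 699 to 850 RPM in aged EE and 319 to 416 RPM in young SH, was the most abundant, and alone among these 15 it had a short expected tag. The 14 named here kept their direction under every refit, but with the short-tag score as a covariate none was called, and the difference shrank to 0.07 for Cdc42ep4, 0.17 for Tcf25, 0.27 for Arrdc4, 0.39 for Ephx1, 0.395 for Tm2d2, 0.42 for Ilkap, 0.48 for Gm6900 and 0.67 for Acaa2. It was 1.53 for Ppp2r1a and 1.16 for Eme1, and 0.71 to 1.005 for the others.

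**Figure D4:**
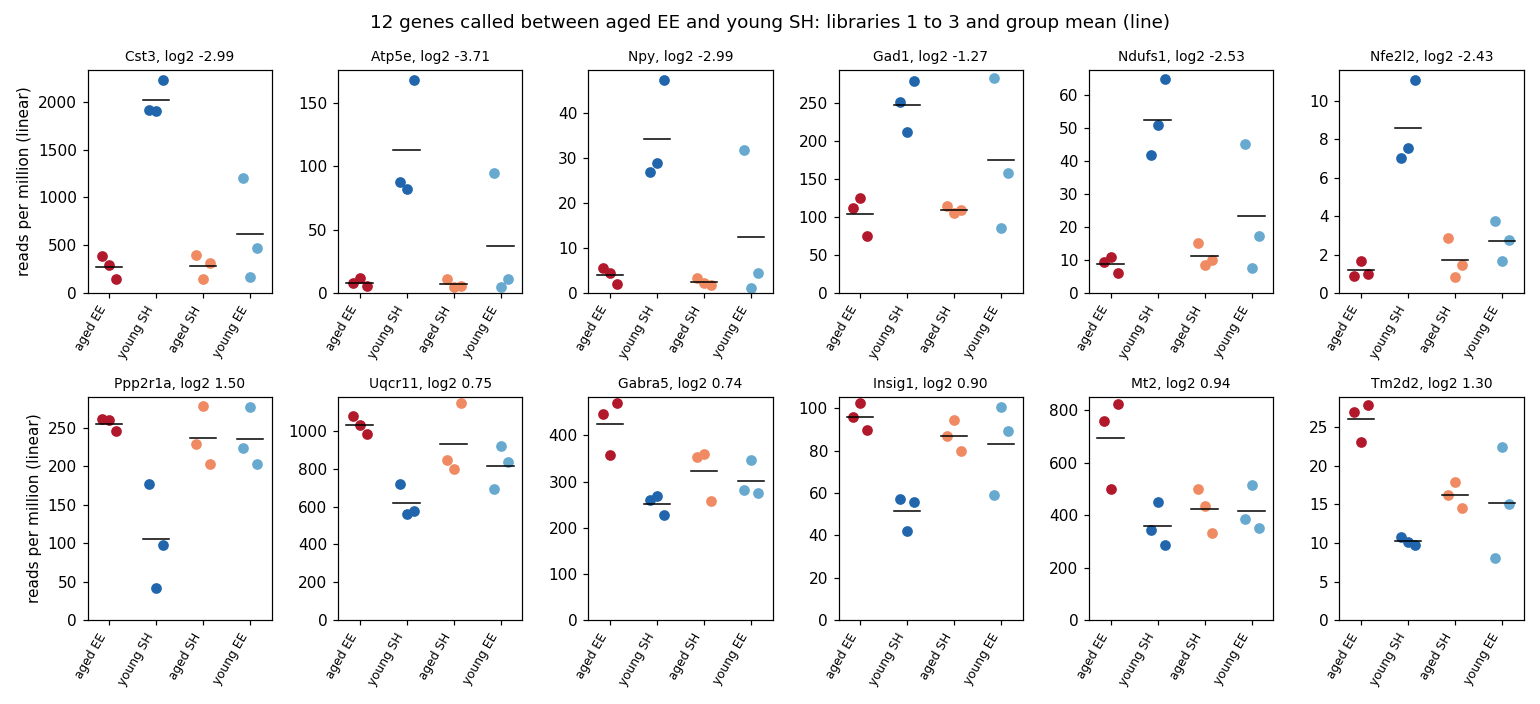
RPM (linear axes from 0) of 12 genes called between aged EE and young SH, in libraries 1 to 3 of each group (points, left to right) with the group mean (line). The upper row was lower in aged EE and the lower row higher. In the upper row, young EE library 1 (leftmost of its group) lies above the other young EE libraries, and for Atp5e, Npy, Gad1 and Ndufs1 above the lowest young SH library.

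Among 13 interneuron markers 2 were called, Gad1 and Npy, both lower, where 2.84% of all genes were lower. The median of the 13 was -0.21, against -0.14 for all genes. Tac1, another of them, was the only one higher at an unadjusted p under 0.05, without being called. It measured 20.2, 26.8 and 15.9 RPM in aged EE against 12.9, 10.8 and 2.39 RPM in young SH (1.47 ± 0.52, adjusted p = 0.161). Gad1, which makes GABA, measured 112, 125 and 74.3 RPM in aged EE and 251, 212 and 279 RPM in young SH (-1.27 ± 0.34, adjusted p = 0.0989). Npy, the peptide of a class of interneurons, measured 5.57, 4.41 and 2.06 RPM against 26.8, 28.8 and 47.3 RPM (adjusted p = 0.0989). Gad1 and Npy both have short tags, of 4 and 11 bases, a class in which 16.4% of genes were called lower. Both were as high in young EE library 1 as in young SH, at 283 and 31.8 RPM. Of 13 GABA receptor genes, Gabra5, the subunit of extrasynaptic receptors in pyramidal cells, was higher, at 445, 357 and 471 RPM against 260, 269 and 227 RPM (0.74 ± 0.17, adjusted p = 0.0809). Gabra5 was the only one called of this list, where 3.34% of all genes were called. The median of that list was -0.60, against -0.14 for all genes, and 6 of its members had a lower level at an unadjusted p under 0.05. Over all 13138 genes, 2495 reached such a p in either direction. None of the 20 glutamate receptor, 20 vesicle release, 12 calmodulin kinase and 8 calcineurin genes was called by limma. In the calcineurin list Ppp3cb, Rcan1, Rcan2 and Rcan3 were lower at an unadjusted p under 0.05 and 0 genes were higher, around a list median of -0.44. Ppp3cb, a catalytic subunit of calcineurin, was at 45.7 to 68.6 RPM in aged EE and 145 to 328 RPM in young SH (-1.86 ± 0.56), without passing the threshold (adjusted p = 0.119) and with the opposite sign, 0.36, once the short-tag score was a covariate.

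None of the PP1 genes that the study names was called by limma. For Ppp1r1a, Ppp1r16b, Ppp1r3b and Ppp1r13b the study reported higher expression in aged EE than in aged SH mice. That is a different contrast from aged EE against young SH, so the values below do not test it. Of the 3 catalytic genes 0 were called by limma or by either test of edgeR, and 1 by DESeq2, Ppp1cc, the one with an unadjusted p under 0.05 in limma. Ppp1cc measured 334, 442 and 372 RPM in aged EE and 339, 233 and 277 RPM in young SH (0.44 ± 0.18, adjusted p = 0.204). Ppp1cb was at 74.8 to 84.3 RPM against 90.4 to 145 RPM (-0.48 ± 0.24), a sign that turned with the short-tag score as a covariate. Ppp1ca differed by -0.06 ± 0.42, and by 0.10 under TMM scaling. Ppp1r1a, inhibitor 1 of PP1, measured 506, 178 and 513 RPM in aged EE and 273, 170 and 239 RPM in young SH. Aged EE library 2 fell inside the young SH range, and the difference of 0.68 ± 0.35 was not called by limma (adjusted p = 0.306). It was called by the likelihood ratio test of edgeR and by DESeq2, at 0.98 each, and not by the quasi-likelihood test. Ppp1r16b, a membrane-anchored regulatory subunit, measured 279, 204 and 307 RPM against 248, 71.5 and 240 RPM (0.68 ± 0.39), and Ppp1r13b, a partner of p53, differed by 0.03 ± 0.27 with a sign that turned in 4 refits. In aged SH libraries Ppp1r1a measured 164 to 188 RPM, Ppp1r16b 134 to 180 RPM and Ppp1r13b 74.1 to 116 RPM. Ppp1r3b did not pass the filter on low counts. Among 22 regulatory genes 1 was called, Ppp1r14c, an inhibitor of PP1, at 2.31 to 4.24 RPM against 7.85 to 10.4 RPM (-1.33 ± 0.35, adjusted p = 0.0989). Over all genes 3.34% were called, beside which this count and that of PP2A genes stand. Of 16 PP2A genes, Ppp2r1a was higher and Ppp2r3c, a regulatory subunit, was lower (-2.48 ± 0.62, adjusted p = 0.09), with 25.7 RPM in young EE library 1 against 14.6 to 27.4 RPM in young SH.

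The lists of genes that mark an aged or activated glial state are short, so that a share of 3.34%, as over all genes, would give less than 1 call in each. Of 12 tested genes known to rise with age in rodent brain, 0 were called by limma and 1 by DESeq2. Their median difference was 0.04 against -0.14 for all genes. An unadjusted p under 0.05 was reached by 1, Il33, which was lower in aged EE. Il33 measured 5.41 to 6.08 RPM in aged EE against 7.52 to 27.7 RPM in young SH (-1.46 ± 0.58, adjusted p = 0.202). Gfap, the intermediate filament of astrocytes, measured 39.8, 32.3 and 46.7 RPM in aged EE and 31.3, 19.4 and 37.2 RPM in young SH, and the groups overlapped (0.46 ± 0.40). C4b, a complement component that usually rises with age, measured 9.90 to 11.3 RPM against 7.99 to 12.8 RPM. Both were named after their values were seen. None of 11 complement and MHC class I, 13 microglia, 14 astrocyte or 10 interferon-stimulated genes was called by limma, with list medians of 0.08, -0.30, -0.21 and -0.67, and DESeq2 called 1, 2, 1 and 2 of them. In the interferon list 5 genes were lower at an unadjusted p under 0.05, which 2495 of all 13138 genes reached in either direction. Its leading member, Usp18, measured 0.69 to 1.099 RPM in aged EE and 4.23, 1.72 and 7.99 RPM in young SH (-1.71 ± 0.48, adjusted p = 0.106).

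Mbp, a main protein of central myelin, was not called, at 3918, 2574 and 4424 RPM against 3536, 683 and 2937 RPM (0.88 ± 0.57, adjusted p = 0.423). For Mbp the groups overlapped, with young SH libraries 1 and 3 above aged EE library 2. Among 13 progenitor and immature neuron genes, Stmn1, a tubulin-binding protein of growing neurites, was lower, at 111 to 122 RPM against 148 to 256 RPM (-0.74 ± 0.20, adjusted p = 0.0989). Dcx, the marker of new neurons, was at 6.36 to 13.7 RPM against 11.2 to 20.3 RPM and was not called (-0.71 ± 0.29, adjusted p = 0.217). Ptgds, which makes prostaglandin D2 and is abundant in the meninges, was the one of 15 collagen and leptomeningeal genes called, at 2.16 to 4.68 RPM against 11.7 to 12.6 RPM (-1.67 ± 0.36, adjusted p = 0.0721). Stmn1 was likewise the only one called of its list, and over all genes 3.34% were called. Of 11 neurotrophin and growth factor genes 0 were called by limma. Bdnf measured 82.8, 47.9 and 83.8 RPM against 22.8, 58.0 and 47.9 RPM (0.79 ± 0.35, adjusted p = 0.25), with aged EE library 2 inside the young SH range. Immediate-early genes, the early transcriptional response to neuronal activity, gave 0 calls of 18 and a median of 0.005. Over the 24 lists with 0 calls by limma, with 313 tested memberships, 55 had an unadjusted p under 0.05. Over all genes 2495 of 13138 did, a similar share. Of these memberships the quasi-likelihood test of edgeR called 1, its likelihood ratio test 17 and DESeq2 21. Over all 13138 genes these tests called 218, 868 and 1071.

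Of 6 blood gene names 3 were lower in aged EE, where 2.84% of all genes were lower, and these 3 share their reads. Hbb-b1, an adult beta globin gene whose reads are identical to those of Hbb-b2 and Beta-s, measured 21.8, 10.9 and 7.30 RPM in aged EE and 62.2, 58.8 and 437 RPM in young SH (adjusted p = 0.094). Young SH library 3 was the highest of the 12, and without it no gene was called in the whole comparison. Hba-a1, an alpha globin gene with reads identical to Hba-a2, was at 530 to 1081 RPM against 1148 to 2456 RPM (-0.97 ± 0.39, adjusted p = 0.207). Choroid plexus genes had a median of 1.09, with aged EE library 3 far above the rest. Of these 9 genes limma called 0, with 2 at an unadjusted p under 0.05, while edgeR called 1 by its quasi-likelihood test and 5 by its likelihood ratio test, and DESeq2 called 3. The Enpp2 level of aged EE library 3 was 693 RPM, against 55.3 to 102 RPM in the other 5 libraries compared.

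Among stress and housekeeping families, calls went in both directions. Over all genes 3.34% were called, beside which the counts of these lists stand. Nfe2l2, the transcription factor of the antioxidant response, was the only called one of 16 antioxidant genes, at 0.88, 1.66 and 0.998 RPM against 7.05, 7.55 and 11.1 RPM (-2.43 ± 0.36, adjusted p = 0.0262), and its site lies 8 bases from the end. Its target Nqo1 measured 1.83, 0.999 and 1.87 RPM against 0.63, 0.15 and 0.83 RPM and was not called (1.03 ± 0.31, adjusted p = 0.123). Among genes of the glucocorticoid response, Mt2, a metallothionein, was higher, at 758, 499 and 825 RPM against 344, 452 and 286 RPM (0.94 ± 0.25, adjusted p = 0.0974), and Ddit4, an inhibitor of mTOR signalling, was lower, at 3.33 to 4.84 RPM against 11.95 to 13.2 RPM (-1.56 ± 0.28, adjusted p = 0.0601), with a site 10 bases from the end. Insig1, which holds back cholesterol synthesis, was higher, at 96.1, 102 and 89.6 RPM against 57.0, 42.0 and 55.6 RPM (0.90 ± 0.20, adjusted p = 0.0743). It was the one called of 14 genes of its list. Hdac4, a class IIa histone deacetylase, was lower, at 9.35 to 12.6 RPM against 14.95 to 21.1 RPM (-0.74 ± 0.19, adjusted p = 0.0937), the one called of 21 DNA methylation and deacetylase genes.

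Over all genes 0.502% were higher and 2.84% lower, beside which the counts of the following lists stand. In the respiratory chain and ATP synthase list, 3 of 78 genes were higher and 4 lower, around a median of 0.07. Uqcr11, a small subunit of complex III, was higher at 983 to 1078 RPM against 560.0 to 717 RPM (0.75 ± 0.18, adjusted p = 0.0809). Ndufs1, the largest subunit of complex I, was lower at 6.05 to 10.9 RPM against 41.7 to 64.8 RPM (-2.53 ± 0.49, adjusted p = 0.0674), and so was Ndufa4 (-2.24 ± 0.48). Of 67 cytosolic ribosomal protein genes 4 were higher and 5 lower. Rplp2 measured 519 to 591 RPM against 303 to 399 RPM (0.64 ± 0.16, adjusted p = 0.09), while Rpl22 measured 2.43 to 2.93 RPM against 8.14 to 12.3 RPM (-1.67 ± 0.40, adjusted p = 0.0823). Ribosomal protein genes have many pseudogene copies that can share a tag, so their counts are uncertain. Of 74 mitochondrial ribosomal genes 0 were higher and 6 were lower, Mrps6, Mrps27, Mrpl27, Mrps2, Mrpl42 and Mrps24, and 3 of these have a short tag. In the proteasome list 1 of 46 genes was called, Psmb3, a subunit of the catalytic core (-2.32 ± 0.63, adjusted p = 0.0989).

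Of the 44 tested genes of the histone list 13 were called, all of them lower and all names of the histone H2B cluster on chromosome 13. The linker histone H1fx, called higher (1.04), is not in that list. These 13 names carry 7 distinct sets of reads, so they are not 13 independent measurements. Hist1h2bk, one of them, measured 1.17, 2.497 and 2.62 RPM in aged EE and 8.14, 7.32 and 7.07 RPM in young SH (-1.68 ± 0.25, adjusted p = 0.0262). Histone messages of this cluster normally lack a poly(A) tail, on which the capture of these libraries depends. The list median was 0.14, and 11 other members were higher at an unadjusted p under 0.05. Over all 13138 genes, 2495 reached such a p in either direction.

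**Figure D5:**
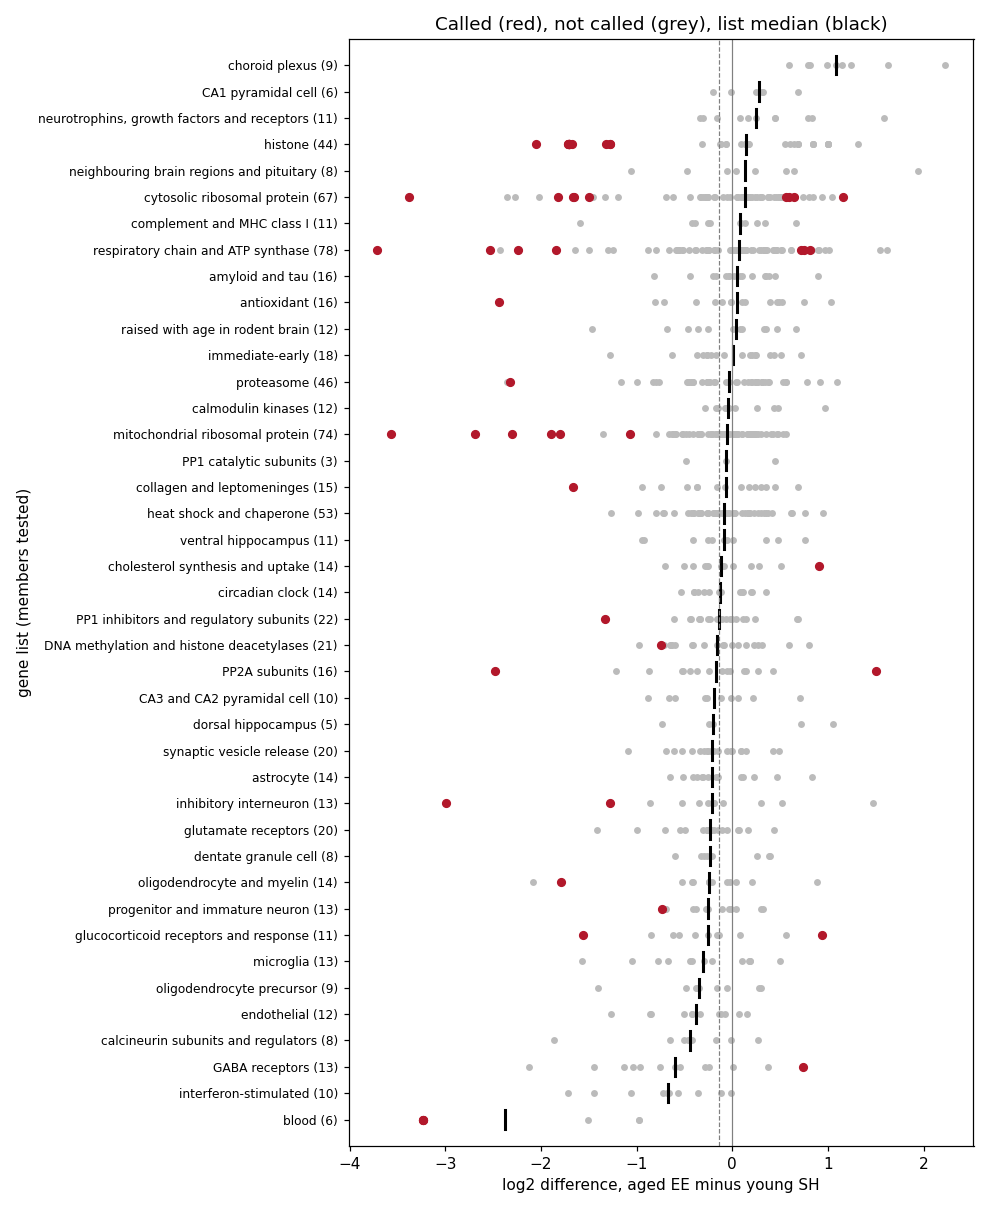
Log2 difference, aged EE minus young SH, of every tested member of the 41 gene lists (number tested in parentheses), with called genes in red, other genes in grey and the list median as a black bar. The dashed line is the median of all 13138 genes, -0.14. Blood and choroid plexus genes lie at the ends, at -2.37 and 1.09, and the medians of the other lists lie between -0.67 and 0.28.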

How the data were processed

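Hippocampal RNA of 12 mice was profiled by SAGE-Seq on a SOLiD instrument, 1 library per mouse and 3 per group. Per the study's methods, the authors mapped tags to mouse transcripts and tested groups in edgeR. The table of aged EE against young SH was used, 1 of 12 deposited tables. It gives, for 29973 transcript rows, a signal that the authors obtained by dividing tag counts by a factor of each library. The value of 1 read ran only from 0.9397 in young SH library 3 to 1.0937 in aged EE library 3. The signal was thus not scaled to library totals. Dividing each value by its library's smallest step, the value of 1 read, gave whole numbers (within 0.1) for 100% of the values low enough to keep their decimals, so the reads were recovered. The fold change and p-value columns of the authors' own comparisons were not used.

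Reads were divided by the library total. For each of 23361 names, the transcript row with the highest deposited signal summed over the 12 libraries was kept, and 153 names had reads identical to those of another. limma 3.58.1 (R 4.3.3) was fitted with a variance trend to log2(RPM + 0.5) of all 12 libraries, after a filter for a minimum count of 10 by edgeR 4.0.16, with two-sided tests, Benjamini-Hochberg adjustment and a threshold of 0.10, the level the study used. A fold change on this scale understates that of low genes. The limma fit was tested on simulated data.

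Genes were named by a rule: up to 15 called genes per direction of largest difference without overlap of libraries, the 4 of smallest p in each of 41 gene lists together with called members where few were called, and the PP1 genes. The text describes a selection of these, with some genes not reported here, and names Vkorc1, Tmem55b, Gfap and C4b after their values were seen. The groups, lists and genes were chosen with earlier results of these data known. Alternatives were TMM and DESeq2 1.42.0 size factors, count tests on the recovered reads, other filters, pseudocounts and thresholds, every transcript row, fewer groups or libraries, covariates, a replicate block and leaving out each library. Tag positions were read from NCBI37/mm9 as the deposited coordinates give transcript ends, and 96.4% of the sites lay inside an annotated terminal exon. Reads carry no molecular identifiers, so depth (10891097 to 16035068 reads in the libraries compared) covers counting error only. Each library is taken as a separate mouse, as the study's methods state.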

Additional observations from a re-analysis of the deposited data

How the results depend on the processing

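Calls between aged EE and young SH (439) numbered 289 under TMM scaling, 218 by edgeR's quasi-likelihood test, 868 by its likelihood ratio test, 1071 by DESeq2, 154 without a filter on low counts, 286 with a mean of at least 20 reads, 270 with a pseudocount of 0.1, 22 at a threshold of 0.05, 703 with only these groups fitted, 0 with 2 libraries per group, 124 with the dorsal minus ventral covariate, 11 without short-tag genes and 0 with the short-tag score as a covariate. Leaving out each library in turn gave 0 to 1221. For aged SH against young SH (495) the counts were 986 by the likelihood ratio test, 1145 by DESeq2, 210 without a filter, 317 with at least 20 reads, 48 at 0.05, 0 with 2 libraries per group, 35 with the dorsal minus ventral covariate, 38 without short-tag genes and 0 with the score, and 0 to 1281 leaving out libraries. For aged EE against young EE (0) they were 19, 49 and, with 2 libraries per group, 1. The cause of these shifts was not tested, except that a stricter threshold lowers a count by construction.

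With the replicate number as a block, 159 genes were called between aged EE and young SH and 267 between aged SH and young SH. Deviations of same-numbered aged EE and young SH libraries correlated at -0.02, 0.12 and -0.13, and for number 2 the same-numbered library was the best match. Whether the numbers pair the mice cannot be told from so few libraries.

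The difference in distance to young SH between the aged groups kept its sign in every setting, from -0.08 to -0.02. The settings reuse the same libraries, and the part of their unequal depth was not tested. For the 71 genes named, 1171 of the single-gene values kept side and direction, 831 lost the call, 18 gained it and 19 changed sign. With the score as a covariate the sign changed for Rps4x (0.24), Npy (0.14), Ppp1cb (0.28), Ppp3cb (0.36), Ppp1r13b (-0.14) and C4b (-0.59). C4b was -0.024 with 2 libraries per group and -0.074 to 0.249 leaving out libraries, lowest without young SH library 3. Ppp1ca was 0.10 under TMM and size factor scaling, 0.11 (0.105 and 0.107) by the count tests, 0.01 with the dorsal minus ventral covariate, and -0.228 to 0.069 leaving out libraries, above 0 without aged EE or young SH library 1. Ppp1r13b was -0.022 with that covariate and -0.224 to 0.22 leaving out libraries, below 0 without aged EE library 3 or young SH library 2.

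Depth limits low genes, and 3 against 3 libraries cannot give an exact permutation p below 0.1.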
